A study of Mus musculus with 4 samples.

Results

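The genes described here are the 131 genes whose RNA lay higher in both libraries of Treg cells without Nsd2 than in both libraries of wild-type Treg cells. They were chosen on the measured values. For each gene name the transcript with the highest mean was kept, its mean over the 4 libraries had to reach 1 RPKM (read counts scaled by transcript length and by library size), the lowest cKO value had to exceed the highest WT value, and the cKO mean had to be at least 1.5 times the WT mean. Of 15596 names in the files, 203 met these numerical conditions. Accession names (40), names of predicted genes, microRNAs, receptor and immunoglobulin segments and RIKEN clones (22), and 10 genes dropped by name (Itgae, Scd2, Il1r2, Gpr15, Gzmb, S100a4, Ccl5, Cd79b, Cdkn1a and Sqle) were left out. The direction and size of each difference below therefore describe how the set was made, and no test of a member is given as a result.

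The 2 genotypes compared were from C57BL/6 mice, with 2 libraries each of Treg cells sorted from spleen. The first was a conditional knockout of Nsd2 in Treg cells (cKO) and the second was wild type (WT). Every library combined RNA of at least 3 mice, so the spread within a genotype is one between pools and may be partly technical. What promoter drives the deletion, how old the mice were and how the sort was gated were not stated by the labels. Nsd2 itself, listed as Whsc1, stood at 3.46 and 4.27 RPKM in the cKO libraries, against 6.82 and 7.44 RPKM in the WT libraries; which exons were deleted is not stated, so reads may come from parts that remain. The Treg label was met by its markers, since Foxp3 stood at 145 and 113 RPKM in cKO and at 144 and 128 RPKM in WT. Steps between low values, read as single reads, gave depths of 19050000 and 21200000 reads for cKO replicates 1 and 2 and of 19450000 and 19075000 reads for WT replicates 1 and 2.

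Regulatory T cells (Treg cells) hold other immune cells in check and depend on the transcription factor Foxp3. Nsd2 is an enzyme that places the H3K36me2 mark on histones, a mark found over active gene bodies and between genes, where it is known to oppose Polycomb methylation. In pools of sorted cells, a higher level in every cell and a larger share of cells with the gene on cannot be told apart.

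The set was small beside the transcriptome and mixed in function. Its 131 members were 1.4% of the 9382 genes that could have entered it by name and mean level. Of those genes, 17.6% had both cKO values above both WT values and 9.06% had both below. The same rule turned round, with cKO lower, was met by 0.597% of them, or 56 genes. The higher side thus held 70.1% of the genes that met either rule, and 58.9% (106 higher, 74 lower) when the libraries were rescaled by the median of ratios, which moved the median cKO to WT ratio of all eligible genes to 0.997 from 1.02 with the deposited scaling. Among 10319 genes tested from that same level upward, the members included, limma called 0 (0%) at an adjusted p of 0.05, while 320 had an unadjusted p under 0.05. With the replicate number as a block it called 10, of which 6 (0.0581%) were higher in cKO. In that fit 1642 genes had an unadjusted p under 0.05, 1154 of them higher in cKO. Without the block, 212 of the 320 were higher in cKO. Exact permutation of 2 against 2 libraries cannot give a two-sided p below 0.333.

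Plac8, Tmem160 and Bzrap1 are the lead genes of the set. Each lay above the members' median level (1.93 RPKM) and median ratio (1.66), so they do not stand for its range. Plac8, a small cysteine-rich protein first described in placenta and found in several immune cells, stood at 10.7 and 8.11 RPKM in cKO and at 3.90 and 2.48 RPKM in WT. Its means were 9.40 ± 1.82 RPKM in cKO and 3.19 ± 1.01 RPKM in WT (SD, n = 2 each), a ratio of 2.95, and the lower cKO library was 2.08 times the higher WT library. Bzrap1, now named Tspoap1, encodes a RIM-binding protein that also binds the mitochondrial protein Tspo. It stood at 8.50 and 5.67 RPKM in cKO and at 2.74 and 2.50 RPKM in WT, a ratio of 2.71. The 2 cKO libraries differed more from each other than the 2 WT libraries did.

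Tmem160, a mitochondrial membrane protein, was among the 3 members with a mean of 20 RPKM or more. It stood at 30.2 and 28.2 RPKM in cKO and at 17.5 and 17.3 RPKM in WT. The means were 29.2 ± 1.48 RPKM in cKO and 17.4 ± 0.127 RPKM in WT (SD, n = 2 each), a ratio of 1.68, and each genotype had nearly equal libraries. Tspo, the partner of Bzrap1, was no member. It stood at 84.4 and 79.4 RPKM in cKO and at 86.4 and 72.7 RPKM in WT, so the genotypes overlapped. Of 25 genes of mitochondrial import and small inner-membrane proteins, Tmem160 was the only member, beside 1.4% of all eligible genes. Of the 25, 7 (Tmem160 included) lay higher in both cKO libraries, 2 lay lower in both, and the median ratio was 1.05. Over all eligible genes these values were 17.6%, 9.06% and 1.02.

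The sequences before the annotated start are shown for 3 members, as examples that differ in G and C content. They are the 250 bases upstream of the start in RefSeq (GRCm38.p6), 5′ to 3′ on the gene's strand, with capitals at each GC box, GGGCGG or its complement. Npdc1 and Lsr had the largest and the third largest ratio. For Npdc1 the window is chr2:25402800-25403049 on the plus strand, for Lsr chr7:30973470-30973719 on the minus strand and for Tmem160 chr7:16452529-16452778 on the plus strand.
Npdc1: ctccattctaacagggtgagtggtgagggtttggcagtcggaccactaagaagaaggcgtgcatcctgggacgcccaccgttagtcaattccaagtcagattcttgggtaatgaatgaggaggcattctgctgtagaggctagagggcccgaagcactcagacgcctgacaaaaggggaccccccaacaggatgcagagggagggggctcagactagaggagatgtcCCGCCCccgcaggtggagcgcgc
Lsr: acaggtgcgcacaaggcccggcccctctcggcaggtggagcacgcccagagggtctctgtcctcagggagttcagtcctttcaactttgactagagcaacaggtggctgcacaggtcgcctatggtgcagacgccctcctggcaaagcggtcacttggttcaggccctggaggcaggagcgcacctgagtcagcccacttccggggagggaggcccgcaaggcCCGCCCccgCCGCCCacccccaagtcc
Tmem160: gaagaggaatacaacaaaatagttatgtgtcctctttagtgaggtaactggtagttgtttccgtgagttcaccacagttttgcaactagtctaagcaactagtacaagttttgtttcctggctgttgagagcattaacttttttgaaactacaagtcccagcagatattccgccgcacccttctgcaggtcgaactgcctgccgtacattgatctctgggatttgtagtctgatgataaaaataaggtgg

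The windows held 58.4% G and C for Npdc1, 66.8% for Lsr and 42.0% for Tmem160, with 10, 13 and 5 CpG dinucleotides. Over the 97 members with a promoter in the table, taken at the outermost start listed there, 52.6% held a GC box on either strand, beside 61.7% of 7491 eligible genes. The share with the ETS core CCGGAA, read on both strands, was 8.25% of members (8 of 97), beside 25.2% of the eligible genes and 20.6% of the 1767 eligible genes with a mean under 5 RPKM. CCAAT was in 38.1% of members and 37.3% of eligible genes, TATAAA in 9.28% and 5.87%, and CACGTG in 7.22% and 8.78%. The median observed-to-expected CpG ratio was 0.575 in members and 0.758 in eligible genes, at a median G and C content of 59.2% and 60.0%. These are descriptions of letters in a window, and no site was shown to be used.

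**Figure D1:**
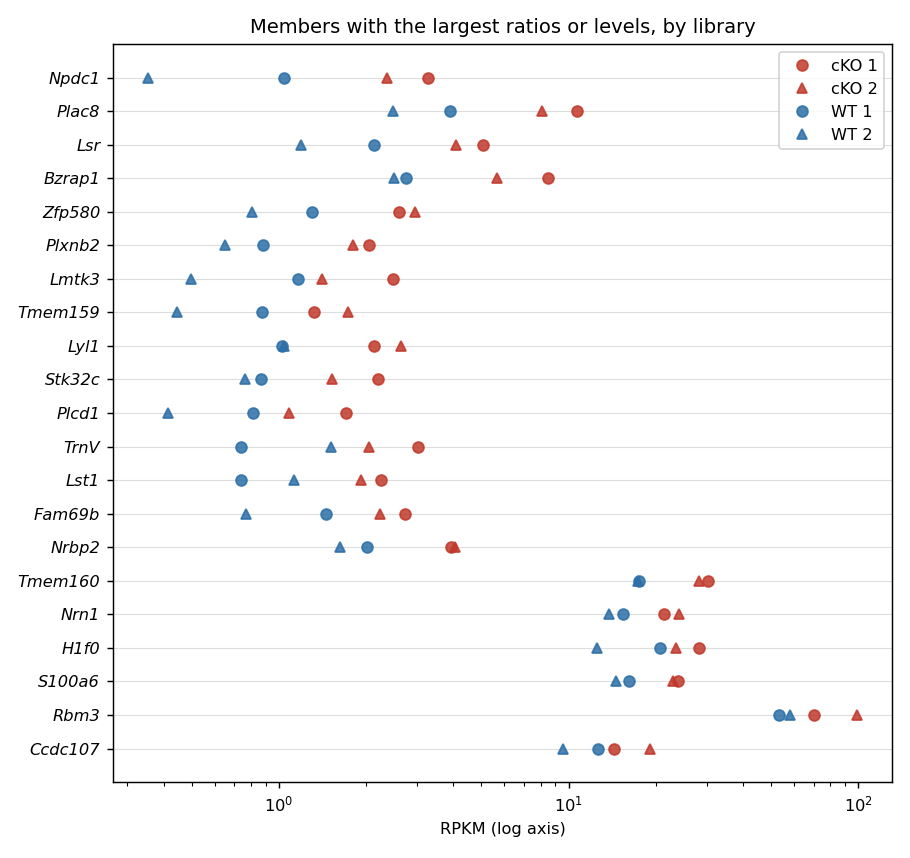
RPKM (log axis) of 21 members in each library: Plac8, Tmem160 and Bzrap1, the 15 members of largest ratio and the 6 of highest mean, with overlap. Red points are the cKO libraries and blue points the WT libraries, circles replicate 1 and triangles replicate 2; Npdc1 is lowest in WT replicate 2 (0.355 RPKM) and Rbm3 is highest in cKO replicate 2 (98.9 RPKM).

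The members of neuronal and synaptic name had the largest single ratio. These 14 genes, known mostly from brain, had a median ratio of 1.73, and 12 of the 14 had transcripts in the upper 2 deciles of G and C content among eligible genes. Npdc1, a membrane protein of neural proliferation control, stood at 3.28 and 2.36 RPKM in cKO and at 1.04 and 0.355 RPKM in WT, a ratio of 4.04. That ratio ran from 2.25 with a pseudocount of 1 to 7.96 without WT replicate 1. Baiap3, a Munc13-like protein of dense-core vesicle traffic, stood at 5.41 and 3.56 RPKM in cKO and at 2.11 and 2.03 RPKM in WT. Nlgn2, an adhesion protein of inhibitory synapses, stood at 4.71 and 5.37 RPKM in cKO and at 2.64 and 2.67 RPKM in WT, with WT libraries nearly equal.

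Igsf9b, another adhesion protein of inhibitory synapses, stood at 3.08 and 1.93 RPKM in cKO and at 1.35 and 1.11 RPKM in WT, and the kinase Lmtk3 at 2.47 and 1.41 RPKM in cKO and at 1.17 and 0.498 RPKM in WT. In both genes the second library of each genotype was the lower one, and the Lmtk3 ratio of 2.33 was 3.90 without WT replicate 1 and 1.66 without WT replicate 2. Rundc3a was the most abundant of the group, at 16.4 and 11.2 RPKM in cKO and at 9.13 and 7.08 RPKM in WT. The potassium channel Kcnh2 stood at 7.38 and 5.79 RPKM in cKO and at 4.59 and 3.77 RPKM in WT. Rogdi, Lrfn4, Mapk8ip1, Camk2n1, Nnat and Scg5 had ratios of up to 1.75.

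Secreted factors and surface receptors made the largest assigned group, with 17 genes and a median ratio of 1.61. The cytokine Lif, a member of the interleukin 6 family, stood at 2.64 and 3.45 RPKM in cKO and at 1.89 and 1.46 RPKM in WT. Areg, the epidermal growth factor receptor ligand amphiregulin, known as a tissue-repair product of Treg cells, stood at 1.82 and 2.47 RPKM in cKO and at 0.855 and 1.74 RPKM in WT. For Areg the gap between the genotypes was small, since the lower cKO value was 1.05 times the higher WT value. Il17rb, a receptor chain for interleukin 25, stood at 2.88 and 2.28 RPKM in cKO and at 1.72 and 1.49 RPKM in WT.

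Several G protein-coupled receptors were members. Ltb4r1, the receptor for leukotriene B4, stood at 2.43 and 1.72 RPKM in cKO and at 1.36 and 0.638 RPKM in WT, a ratio of 2.08 that was 3.25 without WT replicate 1 and 1.52 without WT replicate 2. Gpr55, a receptor for lysophosphatidylinositol, was more abundant, at 6.63 and 5.83 RPKM in cKO and at 4.52 and 3.58 RPKM in WT. Galr3, a galanin receptor, stood at 3.30 and 1.70 RPKM in cKO and at 1.52 and 1.22 RPKM in WT, and overlaps Gcat, another member, on the same strand. F2rl2, a protease-activated receptor, had a ratio of 1.53.

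The other receptors of the group differed in kind. Lsr, the lipolysis-stimulated lipoprotein receptor, stood at 5.06 and 4.10 RPKM in cKO and at 2.13 and 1.19 RPKM in WT, a ratio of 2.76. Plxnb2, a plexin receptor for class 4 semaphorins, stood at 2.05 and 1.80 RPKM in cKO and at 0.884 and 0.649 RPKM in WT, a ratio of 2.51 that was 1.66 with a pseudocount of 1. The neuritin gene Nrn1 stood at 21.4 and 24.0 RPKM in cKO and at 15.3 and 13.8 RPKM in WT, with no overlap. Slamf7, Kremen2, Igfbp7, Orm3 and Nenf had ratios from 1.51 to 1.74.

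A group of 11 immune effector and antigen presentation genes, Plac8 among them, had a median ratio of 1.75. Lgals3, which encodes galectin-3, stood at 2.34 and 2.76 RPKM in cKO and at 0.929 and 1.59 RPKM in WT, a ratio of 2.02. S100a6, a calcium-binding protein linked to activated and effector T cells, stood at 23.8 and 23.0 RPKM in cKO and at 16.1 and 14.6 RPKM in WT. Casp4, the mouse caspase that senses cytosolic lipopolysaccharide, stood at 10.6 and 14.0 RPKM in cKO and at 8.16 and 7.33 RPKM in WT. The lower cKO value was 1.43 times the higher WT value for S100a6 and 1.30 times for Casp4.

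H2-Oa, a chain of the class II antigen-loading modulator, stood at 14.4 and 11.9 RPKM in cKO and at 9.18 and 8.21 RPKM in WT. Ifitm2, an interferon-induced membrane protein, stood at 6.14 and 5.85 RPKM in cKO and at 3.43 and 3.50 RPKM in WT, and Tmem176b, a membrane protein of immune cells, at 3.65 and 3.69 RPKM in cKO and at 2.06 and 2.10 RPKM in WT. Replicates of both genes nearly coincided. Lst1, a short leukocyte-specific transcript, stood at 2.25 and 1.92 RPKM in cKO and at 0.739 and 1.13 RPKM in WT, where the lowest library held about 5.97 reads. Ly6c2 and Apol10b had ratios of 1.75 and 1.79, and the T cell receptor gamma segment Trgj4 one of 1.69.

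Of 35 effector Treg genes that averaged 1 RPKM or more, the level asked of all gene lists except sums, 3 were members, with Lgals3 and S100a6 among them. Over that list 20 genes lay higher in both cKO libraries and 2 lower in both, with a median ratio of 1.20. Over all eligible genes, 1.4% were members, 17.6% lay higher in both, 9.06% lay lower in both and the median was 1.02. The list was chosen with earlier results of these data known. It also holds Itgae, Gzmb and S100a4, which met the numerical conditions and were dropped by name. Of 7 Treg markers, 0 were members, 0 separated the genotypes in either direction, and the median ratio was 1.04.

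Transcription and chromatin genes numbered 12, with a median ratio of 1.60. Zfp580, a zinc finger protein, stood at 2.60 and 2.94 RPKM in cKO and at 1.30 and 0.806 RPKM in WT, a ratio of 2.63. Lyl1, a basic helix-loop-helix factor of early blood cells, stood at 2.14 and 2.64 RPKM in cKO and at 1.02 and 1.04 RPKM in WT, so that the lower cKO value was 2.05 times the higher WT value. Zbtb32, a repressor of lymphocyte activation genes, stood at 7.21 and 5.43 RPKM in cKO and at 4.13 and 3.29 RPKM in WT.

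H1f0, the replacement linker histone of slowly dividing cells, was the most abundant of these genes at 28.1 and 23.5 RPKM in cKO and 20.7 and 12.6 RPKM in WT. Its ratio of 1.55 was 2.06 without WT replicate 1, but 1.249 without WT replicate 2 and 1.42 without cKO replicate 1, both under the bound. Hist3h2ba, a histone H2B gene, stood at 3.61 and 3.72 RPKM in cKO and at 2.23 and 2.19 RPKM in WT. The list of replication-dependent histone genes does not hold it. Among 8 genes of that list 0 were members, 1 lay higher in both cKO libraries, 1 lay lower in both and the median ratio was 0.814. The same values over all eligible genes were 1.4%, 17.6%, 9.06% and 1.02. Nrarp, a target and inhibitor of Notch signalling, stood at 4.45 and 4.21 RPKM in cKO and at 2.70 and 2.75 RPKM in WT. Arnt2, Snai3, Pcgf2 (a Polycomb subunit), Hdac11, Hoxb4 and Cebpa had ratios from 1.52 to 1.65.

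Lipid genes had the highest group median, 1.90 over 7 genes, 6 of them with a mean under 2 RPKM. Mfsd2a, a transporter of lysophosphatidylcholine, stood at 1.5 and 1.66 RPKM in cKO and at 0.834 and 0.801 RPKM in WT. Alox8, an arachidonate lipoxygenase, stood at 2.28 and 2.59 RPKM in cKO and at 1.40 and 1.17 RPKM in WT. Tmem159, a lipid droplet protein, stood at 1.33 and 1.73 RPKM in cKO and at 0.872 and 0.444 RPKM in WT, a ratio of 2.33 that was 3.44 without WT replicate 1, 1.76 without WT replicate 2 and 1.53 with a pseudocount of 1. Plcd1, a phospholipase C, stood at 1.71 and 1.08 RPKM in cKO and at 0.812 and 0.414 RPKM in WT, and was the member closest to the level bound.

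Soat2, which esterifies cholesterol, stood at 2.52 and 2.30 RPKM in cKO and at 1.40 and 1.62 RPKM in WT. Stard10, a phospholipid carrier, stood at 13.2 and 9.34 RPKM in cKO and at 7.96 and 6.19 RPKM in WT. Tlcd2 had a ratio of 1.66. Among 18 cholesterol synthesis genes, 11 lay higher in both cKO libraries and 0 lower in both, with a median ratio of 1.24, beside 17.6%, 9.06% and 1.02 over all eligible genes. None of the 18 was a member, beside 1.4% of all eligible genes, and Sqle, the 1 gene at or above 1.5, was dropped by name.

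Enzymes of small-molecule metabolism numbered 14, with a median ratio of 1.73. Dcxr, a xylulose reductase, stood at 7.31 and 5.79 RPKM in cKO and at 4.30 and 2.73 RPKM in WT. Chac2, a glutathione-degrading enzyme, stood at 1.84 RPKM in both cKO libraries and at 0.772 and 1.10 RPKM in WT. The glycolytic isoenzymes Eno2 and Aldoc, known from neurons, had ratios of 1.90 and 1.65. Eno2 stood at 1.64 and 1.57 RPKM in cKO and at 0.954 and 0.734 RPKM in WT. Alpl, an alkaline phosphatase, stood at 1.45 and 1.40 RPKM in cKO and at 0.855 and 0.643 RPKM in WT, and Tst, the mitochondrial sulfur transferase rhodanese, at 1.23 and 1.59 RPKM in cKO and at 0.842 and 0.762 RPKM in WT. Nudt2, Nmral1, Haghl, Car5b, Naprt1, Gcat, Gstt3 and Fahd2a had ratios from 1.52 to 1.75.

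Of the proteases, nucleases and glycosylation enzymes, Ctsf, the lysosomal cysteine protease cathepsin F, had the largest ratio at 2.06. It stood at 1.42 and 1.43 RPKM in cKO and at 0.752 and 0.635 RPKM in WT. Ctsf was the only member among 20 genes of a lysosomal and protease list that does not hold Dnase2a. Of the 20, 5 lay higher in both cKO libraries and 1 lower in both, and the median ratio was 1.02. Over all eligible genes, 1.4% were members, 17.6% lay higher in both, 9.06% lay lower in both and the median was 1.02. Mgat4b, an enzyme of N-glycan branching, stood at 5.80 and 4.92 RPKM in cKO and at 3.50 and 2.88 RPKM in WT. Dnase2a, the lysosomal deoxyribonuclease, stood at 6.01 and 4.98 RPKM in cKO and at 3.68 and 3.53 RPKM in WT. Pgpep1 and Cpd had ratios of 1.86 and 1.54.

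The 5 solute carriers had ratios from 1.51 to 1.63. Slc14a1, a urea transporter, stood at 13.4 and 18.7 RPKM in cKO and at 11.8 and 9.31 RPKM in WT. Slc7a10, a carrier of small neutral amino acids, stood at 4.80 and 3.98 RPKM in cKO and at 3.31 and 2.06 RPKM in WT. The peptide carrier Slc15a3, the nucleoside carrier Slc29a2 and the amino acid carrier Slc43a1 had ratios of 1.60, 1.56 and 1.51.

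Genes of cell division and DNA numbered 5. Tk1, the thymidine kinase of dividing cells, stood at 14.7 and 12.8 RPKM in cKO and at 9.06 and 8.51 RPKM in WT. Cdca3, a trigger of mitotic entry, stood at 5.17 and 5.40 RPKM in cKO and at 3.24 and 3.19 RPKM in WT, and the spindle protein Spag5 at 2.19 and 2.31 RPKM in cKO and at 1.53 and 1.38 RPKM in WT. Tipin, a replication fork protein, stood at 6.14 and 9.78 RPKM in cKO and at 4.70 and 5.91 RPKM in WT, and its lower cKO value was only 1.04 times the higher WT value. The nuclease gene Ankle1 had a ratio of 1.89. The list of cell cycle genes does not hold Cdca3, Spag5, Tipin or Ankle1. Among 32 genes of that list, Tk1 was the only member, beside 1.4% of all eligible genes. Of the 32, 15 lay higher in both cKO libraries and 0 lower in both, and the median ratio was 1.23, beside the same 17.6%, 9.06% and 1.02.

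Among heat, cold and stress genes, Rbm3, a cold-inducible RNA-binding protein, was the most abundant member of the whole set. It stood at 70.4 and 98.9 RPKM in cKO and at 53.3 and 58.1 RPKM in WT, a ratio of 1.52 that was 1.26 without cKO replicate 2 and 1.78 without cKO replicate 1. Of its 3 other transcripts in the files, 2 lay within 1% of these values and the third had a ratio of 1.28. Hspb1, a small heat shock protein, stood at 5.41 and 3.28 RPKM in cKO and at 1.87 and 3.18 RPKM in WT, so cKO replicate 2 and WT replicate 2 nearly met. Dusp14, a phosphatase of T cell signalling kinases, had a ratio of 2, and Hspa2 one of 1.52.

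Cytoskeletal, trafficking and kinase genes numbered 15. Nrbp2, a pseudokinase, stood at 3.94 and 4.05 RPKM in cKO and at 2.01 and 1.63 RPKM in WT, a ratio of 2.19. Stk32c, a serine/threonine kinase, stood at 2.19 and 1.53 RPKM in cKO and at 0.869 and 0.765 RPKM in WT. Ankrd13b, a ubiquitin-binding adaptor, stood at 13.9 and 11.2 RPKM in cKO and at 8.54 and 7.22 RPKM in WT. The names Tmsb15b2 and Tmsb15b1-Tmsb15b2 share sequence and are not separate measurements. Tmsb15b2 stood at 4.52 and 5.60 RPKM in cKO and at 1.65 and 4.02 RPKM in WT, and its ratio of 1.78 was 3.06 without WT replicate 2 and 1.26 without WT replicate 1.

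The remaining genes of that group, Sh3d20 (now Arhgap27), Tnnt1, Cdc42bpg, Spsb2, Coro2b, Trim46, Tbc1d7, Tbc1d16, Rcn3 and Kif7, had ratios from 1.51 to 2.13, with Sh3d20 (2.13) at 3.22 without WT replicate 1 and at 1.51 without cKO replicate 1. Prelid2 and Rpusd3, both mitochondrial, had ratios of 1.61 and 1.51. The mitochondrial valine transfer RNA, TrnV, stood at 3.01 and 2.04 RPKM in cKO and at 0.743 and 1.51 RPKM in WT, a ratio of 2.24 that was 3.41 without WT replicate 2 and 1.67 without WT replicate 1, over a gene so short that its RPKM is uncertain. No role was assigned to 18 members: Fam69b, Dkkl1, Myadm, Fam195a, Wbscr27, Fam129b, Pxmp2, Ier5l, Tspan17, Spata24, Crip2, Tmbim1, Ccdc107, Itfg3 and 4 names that begin with LOC. Their ratios ran from 1.51 to 2.23, and Ccdc107 was the most abundant of them at 14.4 and 19.1 RPKM in cKO and at 12.6 and 9.56 RPKM in WT.

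**Figure D2:**
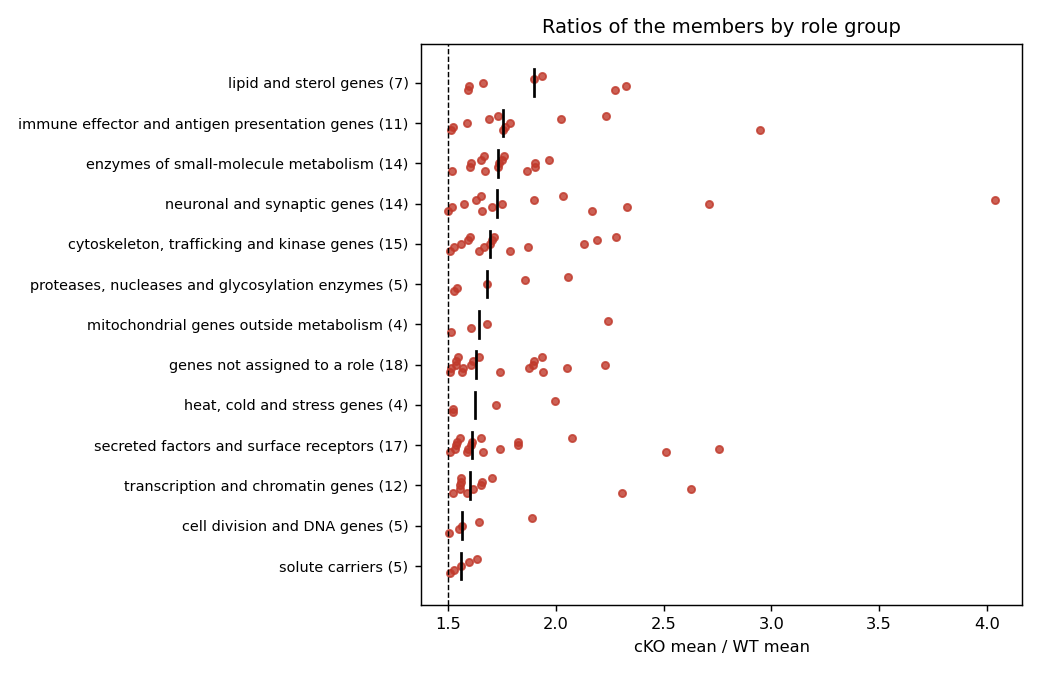
Ratio of the cKO mean to the WT mean for each of the 131 members (points) by role group, with the number of genes in brackets and the group median as a black bar; the dashed line is the bound of 1.5. Medians run from 1.56 for solute carriers to 1.90 for lipid genes, with Npdc1 alone above 4.

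Members were rare RNAs. Their median level was 1.93 RPKM over the 4 libraries, beside 11.7 RPKM over all eligible genes. Of the 131, 67 (51.1%) had a mean between 1 and 2 RPKM, a range that held 8.55% of eligible genes, and 3 (Rbm3, Tmem160 and H1f0) had a mean of 20 RPKM or more, as did 31.5% of eligible genes. Put the other way, 8.35% of eligible genes between 1 and 2 RPKM were members, as were 2.62% of those between 2 and 5 RPKM and 0.102% of those at 20 RPKM or more. Summed, the members held 0.236% and 0.233% of the RPKM of eligible genes in cKO, and 0.150% and 0.138% in WT.

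Many of these values rest on few reads. From the depth of each library and GENCODE transcript lengths, 60 of the 125 members with a length had fewer than 50 reads in at least 1 library, and 17 had fewer than 20. The median of the lowest library was 56.7 reads for members and 578 reads for eligible genes. Bzrap1, on a long transcript, had about 363 reads in its lowest library, and Tmem160 about 269. Plac8 had about 35.1 and Npdc1 about 10, in WT replicate 2 in both cases.

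**Figure D3:**
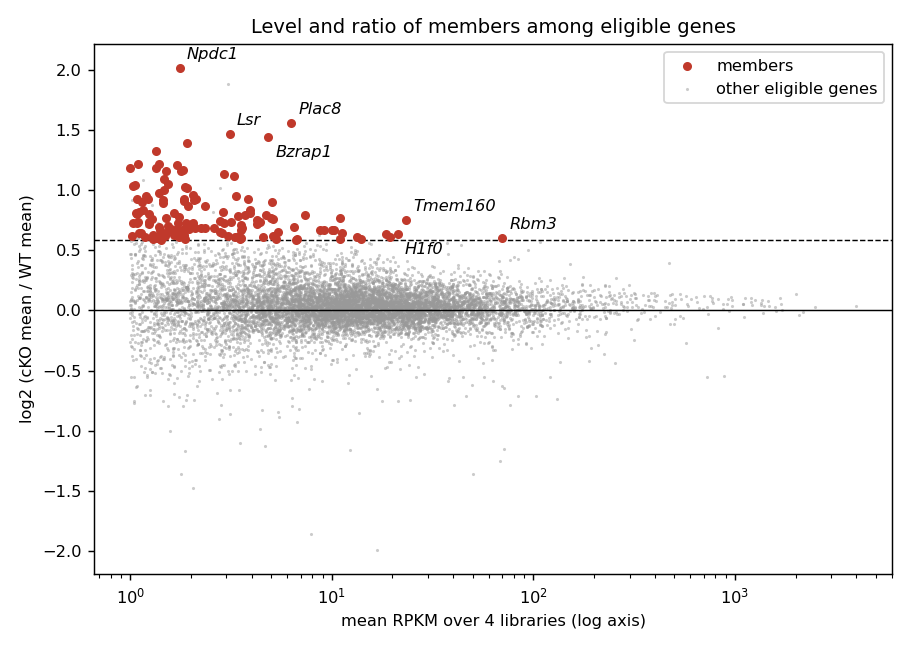
Log2 of the cKO to WT ratio of means against mean RPKM over the 4 libraries (log axis); members are red and the other eligible genes gray, and the dashed line is a ratio of 1.5. Red points crowd at the left, where 67 of 131 have a mean under 2 RPKM.

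The bounds of the rule cut through a continuous range. Just inside the ratio bound were Scg5 (1.501), Tipin (1.502), Itfg3 (1.509) and Nenf (1.509), and just outside were Art3 (1.497), Icam5 (1.493), LOC100503915 (1.488) and Dna2 (1.482). At the level bound, Plcd1, F2rl2, Lrfn4 and LOC100504590 had means of at most 1.04 RPKM. Selm, Gpr56, Rap1gap2 and Derl3, which met the other conditions, had means of 0.960 to 0.998 RPKM.

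Transcript composition, which the rule did not use, set members apart in description. The median G and C content of members was 56.2% (125 with a value), beside 50.5% over 9131 eligible genes. The top decile by this measure held 40 of the 125, the upper 2 deciles 64 (51.2%), and the lower 5 deciles 24 (19.2%). Members were 4.38% of eligible genes in the top decile and 0.547% in the lowest. Below 2 RPKM, members were 19.4% of 170 eligible genes in the upper 2 deciles and 3.02% of 364 in the lower 5 deciles. Members were also shorter, with a median transcript of 1880 bases beside 2882.

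Libraries differed by composition in a way that followed the replicate number. Over eligible genes in the top decile of G and C content, the median ratio of cKO replicate 1 to cKO replicate 2 was 1.26 and that of WT replicate 1 to WT replicate 2 was 1.22. In the lowest decile the same medians were 0.745 and 0.771. Between genotypes the slope was smaller: the median of cKO to WT was 1.07 for the replicates numbered 1 and 1.03 for those numbered 2 in the top decile, and 0.972 and 1.004 in the lowest.

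With each library corrected for this slope, 101 of the 131 members still met the rule, with 1 gene that had not been a member, and the members' median ratio was 1.61. Members without a G and C value were left unchanged and are counted among the 101. The correction also moved the median ratio of all eligible genes to 1.003 from 1.02. How many of the losses came from that shift alone was not tested. The higher side then held 62.6% of genes meeting either rule. Plac8 had a corrected ratio of 2.93, Bzrap1 2.52, Npdc1 3.99, Lsr 2.63 and Tmem160 1.60. S100a6, at 1.46, was among those that fell under the bound.

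**Figure D4:**
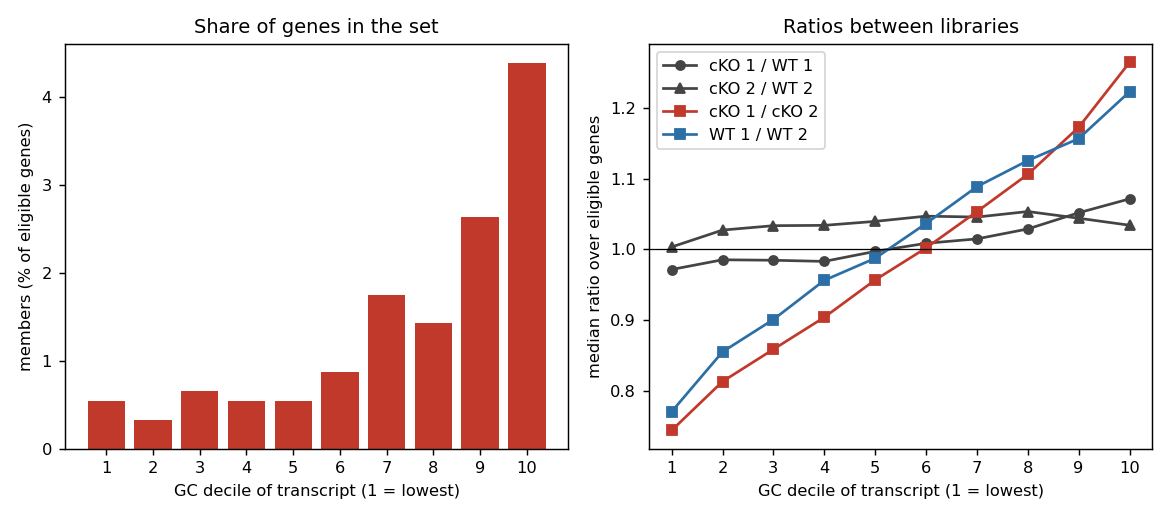
Left, members as a percentage of eligible genes in each decile of transcript G and C content. Right, median ratio over eligible genes in each decile for cKO 1 to WT 1 and cKO 2 to WT 2 (gray), cKO 1 to cKO 2 (red) and WT 1 to WT 2 (blue). The share of members is 4.38% in the top decile, and the lines within a genotype climb from 0.745 (cKO) and 0.771 (WT).

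Within each genotype the members did not move as 1 block. Replicate 1 exceeded replicate 2 for 85 of 131 members in cKO (64.9%) and for 93 in WT (71.0%), beside 46.3% and 52.4% of all eligible genes. Replicate 1 was the higher in both genotypes for 68 members, Plac8, Bzrap1, Npdc1 and Galr3 among them. Replicate 2 was the higher in both for 21, such as Rbm3, Tipin, Tmsb15b2, Lgals3 and Lyl1. The other 42 were split. Among the 64 members in the upper 2 deciles of G and C content the first pattern held for 45, and among the 24 in the lower 5 deciles for 6. Across the 131 members, the log2 difference between replicates in cKO and that in WT had a Pearson correlation of 0.310, as a description over genes that share 4 libraries, beside 0.606 over all eligible genes.

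**Figure D5:**
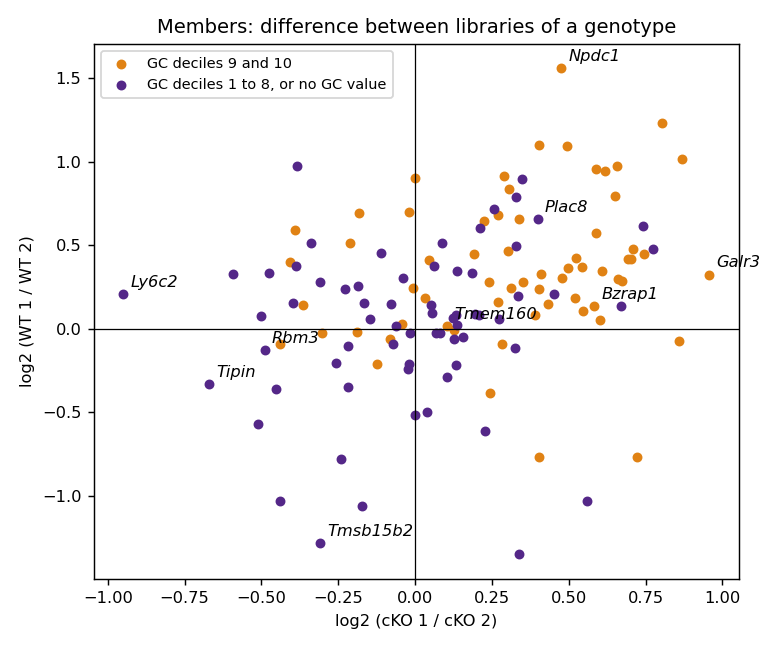
Each point is a member: log2 of cKO replicate 1 over cKO replicate 2 (horizontal) and of WT replicate 1 over WT replicate 2 (vertical), orange for the upper 2 deciles of G and C content. The upper right corner, with replicate 1 higher in both genotypes, holds 68 of 131 members.

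The ratio within replicate number was similar for both. The members' median cKO to WT ratio was 1.69 between the replicates numbered 1 and 1.68 between those numbered 2, and it was larger in number 1 for 65 of 131. The rule fixes that both lie above 1. The smallest such ratios were 1.09 in number 1 and 1.03 in number 2, and the largest were 4.06 and 6.66.

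Single libraries decided many entries, by the ratio or by the level. Taken with 1 library left out, the rule was still met by 75 members without cKO replicate 1, by 106 without cKO replicate 2, by 112 without WT replicate 1 and by 84 without WT replicate 2. The level bound was applied to the libraries left, so members near it could fail on level alone. Ctsf did not meet all 4 omissions, though its ratio ran from 1.89 to 2.25 over them. All 4 omissions were met by 44 members, among them Plac8, Bzrap1, Tmem160, Npdc1, Lsr, Plxnb2, Zfp580, Lyl1, Nlgn2, Baiap3, Lif, Ltb4r1, Lgals3, Ifitm2, Tmem176b and Cdca3. Of those 44, 43 also met the rule after the composition correction, which left members without a G and C value unchanged.

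Some genes listed as markers of other cell types were well detected, such as Pecam1 (mean 42.1 RPKM), Cst7 (34.5 RPKM), Xbp1 (31.6 RPKM) and Cd74 (28.5 RPKM). They were named after their values were seen, and whether their RNA came from Treg cells or from other cells was not tested. Others in the same lists were low, such as Vwf (0.0173 RPKM), Klrk1 (0.154 RPKM), Sdc1 (0.135 RPKM) and Cr2 (0.0789 RPKM), also picked by value. In the macrophage and erythroid lists cKO replicate 1 had the highest sum. None of the 131 members is in the lists of B cell, plasma cell, macrophage and dendritic cell, neutrophil, erythroid, CD8 T and NK cell, or stromal markers. For the B cell marker Cd79b (ratio 1.55) the naming rule decided this, since it met the numerical conditions and was dropped by name. The level bound kept out the plasma cell marker Derl3 (ratio 2.20, mean 0.960 RPKM), which met the other conditions. It likewise kept out Sdc1, Fcer2a and Cd8a, with means of at most 0.283 RPKM. The summed level of 12 measured macrophage and dendritic cell markers was 43.3 and 22.4 RPKM in cKO and 20.8 and 25.8 RPKM in WT, with C1qa at 6.06 and 1.39 RPKM in cKO and at 1.42 and 2.27 RPKM in WT. The 8 erythroid and platelet markers summed to 46.5 and 8.73 RPKM in cKO and to 27.1 and 13.2 RPKM in WT. Of the 7 B cell markers measured, 4 reached a mean of 1 RPKM and all 4 lay higher in both cKO libraries (17.6% of all eligible genes did), with sums of 41.7 and 41.9 RPKM in cKO and 37.5 and 32.1 RPKM in WT over the 7. The part of such cells in the levels of H2-Oa, Lst1, Tmem176b, Cebpa or other members was not tested.

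Other transcripts and overlapping genes may share reads with members. For 18 of the members the files list 28 other transcript rows, 25 of which also met the ratio and separation conditions and 0 of which had a ratio below 1. Since they overlap the row used, they are no separate evidence. By GENCODE, 57 of 125 members matched overlap another gene, coding or not, and 36 overlap a protein-coding one, and the labels do not say whether counting used strand. These are overlaps of whole gene spans, introns included, and reads in common were not measured. The share over all eligible genes was not computed, so the counts are no trait of the members. The overlapping members include Npdc1 (with Entpd2), Zfp580 (with Ccdc106), Lyl1 (with Nfix), Nrn1 (with Fars2), Rbm3 (with Rbm3os), Ccdc107 (with Rmrp) and Galr3 (with Gcat), and their values are uncertain to that extent.

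Members lay on most chromosomes, with a few close neighbours. Chromosome 11 held 20 members (2.54% of its eligible genes), chromosome 7 held 17 (2.34%) and chromosome 15 held 10 (2.63%). Chromosome 10 held 1 (0.228%). Over all eligible genes the share was 1.4%, and these chromosomes were picked by value. A run of 3 members lay together on chromosome 15 (GRCm38.p6), H1f0 from 79028212 to 79030504, Gcat from 79030874 to 79042531 and Galr3 from 79041885 to 79043558. Another group lay on chromosome 6, with Eno2 from 124760053 to 124769673, Spsb2 from 124808604 to 124810619 and Cdca3 from 124829530 to 124833701. Spag5 and Aldoc were 616 bases apart on chromosome 11. How often eligible genes lie this close was not computed, so the neighbours are no trait of the members. Plac8 lies on chromosome 5 (100551589 to 100572253), Tmem160 on chromosome 7 (16452779 to 16455496) and Bzrap1 on chromosome 11 (87758194 to 87785928).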

How the data were processed

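RNA-seq was measured in 4 libraries, 2 cKO and 2 WT, grouped by the labels. The authors deposited RPKM values for 19291 transcript rows, 0 of them at 0 in every library. No unit stands in the file headers, and RPKM was inferred from how values step. The submitters' processing notes name HISAT2, DESeq2 and the build mm10, with no version or role. How reads were counted, by strand or not, and filtered is not stated there. Reads were 50 nt and single-ended, per the labels' protocols.

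The members and all gene lists were chosen with earlier results of these data known, and the role groups were assigned by hand after the members were listed. The genes named were the 3 lead genes, the 15 members of largest ratio, 6 of highest mean, 10 of largest gap between genotypes, those next to the ratio bound, up to 5 per role group and those found in the lists; further members were named after their values were seen. The design written first allowed for counts or RPKM. For RPKM the test was limma 3.58.1 (R 4.3.3) on log2(RPKM + 1) (trend and robust options), fitted on genotype alone, with p-values adjusted by Benjamini-Hochberg over 10319 genes. It was tested on simulated data. Ratios are of mean RPKM.

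Depth was estimated from values worth 0.5 to 6 reads, of which 65.8% to 70.8% per library came within 0.1 of a whole number (20% by chance). Lengths and G and C content came from GENCODE M21 by RefSeq accession. Of the members, 127 were found in RefSeq's table of genes for GRCm38.p6 (mm10). Python 3.11.15, pandas 2.3.3 and matplotlib 3.10.9 were used. Alternatives changed the transcript choice, bounds, scaling, pseudocount, block and libraries. Values of 2 members are not reported here.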

Additional observations from a re-analysis of the deposited data

How the results depend on the processing

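The number of genes that met the rule was 131, and 152 with transcripts summed, 106 with median-of-ratios scaling, 102 with libraries corrected for G and C content and 129 with the geometric mean of within-number ratios. It was 211 with a mean of at least 0.5 RPKM, 31 with at least 4, 499 with a lower ratio bound, 22 at a ratio of 2 and 49 with a pseudocount of 1 in the ratio. Leaving out 1 library gave 169 to 302 genes.

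The members' median ratio was 1.66 as reported. It was 1.62 with median-of-ratios scaling, 1.45 with the pseudocount and 1.61 with the composition correction, and ran from 1.59 to 1.81 when 1 library was left out. Of 536 recomputed ratios of 67 named members, 507 moved by less than the spread between replicates, 29 moved by more and 0 turned below 1. Part of this is built in. Since all cKO values of a member lie above its WT values, neither an omission nor the pseudocount can bring its ratio below 1. Leaving out a cKO library also cannot move a ratio by more than that spread. The corrections for composition and the geometric mean were chosen after seeing the data.

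Limma called 0 genes as reported, 0 with a pseudocount of 0.1, with no filter, with a mean of at least 4 RPKM and with median-of-ratios scaling. The fit with the replicate block called 10, 6 of them higher, and leaving out 1 library called 30 to 95, in fits where the lone library is assumed to vary like the other group. The labels do not say that the numbers pair the samples. Differences between replicates 1 and 2 in cKO and in WT had a correlation of 0.525 over the 10319 genes tested, on log2(RPKM + 1); the 0.606 above is over eligible genes on log2 ratios without a pseudocount. At these depths, 60 of 125 members had fewer than 50 reads in some library.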
